A study of Sus scrofa with 16 samples.

Results

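Kidney and lung both grow by repeated branching of an epithelial tube into surrounding mesenchyme, and the open chromatin of these organs at birth was compared here. Accessible chromatin regions (ACRs) were profiled by ATAC-seq, which reads out open DNA through the adaptors that a transposase can insert into it. The comparison took the newborn kidney list and the newborn lung list of consensus peaks on chromosomes 1 to 18, and a peak was called shared when it overlapped a peak of the other list by 1 bp or more. The kidney list held 128184 peaks and the lung list 77408 peaks, so 205592 peaks entered the comparison, against 548296 in the 6 newborn lists of the series over all chromosomes. Of these, 80266 kidney peaks had no lung peak (kidney-only), 29567 lung peaks had no kidney peak (lung-only), and 47918 kidney peaks overlapped 47841 lung peaks (shared).

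The whole series covered 16 libraries in 8 groups, from kidney, lung and 4 other organs of newborns and from liver at 2 later ages. Both groups compared here came from untreated female crossbred domestic pigs that the labels place on the day of birth, with 2 libraries of each organ. The study's methods give the newborns' age as 1 day and describe them as 2 full sisters of a Berkshire and Tibetan cross that each gave every organ. Every list merges its 2 libraries, so the counts and shares below have no replicate error, no test over samples was possible, and 1 list per organ stands for 2 related animals. The lists carry no read counts, the study's read totals, larger for the lung than for the kidney libraries, were not used here, and a missing peak was not called rather than shown to be closed. Whole organs were used, in which fewer cells of a type and less accessibility per cell cannot be told apart.

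In the developing kidney, the ureteric bud branches under RET and GDNF signals and becomes the collecting system, while the nephron progenitors around it give rise to podocytes and to the tubule. The tubule reclaims salts, glucose, phosphate and water with transporters that differ from segment to segment. In the lung, FGF10 from the mesenchyme drives branching of an epithelium that depends on NKX2-1, and its distal tips give rise to alveolar cells that make surfactant and exchange gas. PAX2 and PAX8 are paired-box factors of the renal epithelium, HNF1 and HNF4 factors control renal and hepatic epithelial genes, and FOXA, GATA6 and NKX2-1 act in the lung epithelium.

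The markers of each organ were looked at first. PAX2 lay on chromosome 14 with 12 kidney-only peaks in its promoter and gene body, and its promoter peak had a −log10 p, the score of the peak caller, of 11.5 in kidney replicate 1 and 33.1 in kidney replicate 2. No lung peak touched the PAX2 promoter, although 2 weak lung-only peaks (3.99 and 17.3, and 5.50 and 3.48) lay in an exon near its 3′ end and 1 pair of peaks was shared in an intron. PAX8 was not analysed here, since the gene table used holds no entry of that name. NKX2-1 on chromosome 7 had a promoter peak in both lists. The lung peak reached 10.7 and 57.3 in replicates 1 and 2, the kidney peak 8.66 and 10.8 with an irreproducible discovery rate (IDR) of 0.0513, and the latter overlapped no peak of newborn heart, liver, muscle or spleen. A second NKX2-1 promoter peak was lung-only, with 4.51 and 50.3. The NKX2-1 promoter therefore did not separate the lists by presence of a peak, whereas the other lung markers SFTPC, SFTPB, SFTPA1 and AGER had a promoter peak in lung alone, and ABCA3, a lipid transporter of lamellar bodies, had one in both. Of the other kidney markers, SLC34A1, SLC12A1 and AQP2 had a promoter peak in kidney alone. UMOD, which encodes the main protein of urine, had no promoter peak in either list and only 1 weak kidney-only peak in an exon.

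The DNA under the strongest organ-only peak is shown for 10 genes that stand for the roles described below, each with 100 bases on either side of the summit, on the plus strand of Sscrofa11.1. Matches on either strand to the short sequences of HNF1, HNF4, NKX2, FOXA, TEAD, GATA and CEBP factors, the 7 families whose shares differed at least 1.8 times between kidney-only and lung-only peaks, are in capitals. The first window lies in an intron of PAX2, the second in an intron of HNF4A (a factor of proximal tubule and liver), the third in an intron of WNT9B (a ligand of the ureteric bud), the fourth at the promoter of CALB1 (calbindin, a calcium-binding protein of the distal tubule), and the fifth at 1 of the starts of SLC4A4 (a sodium bicarbonate cotransporter).
PAX2 intron, chr14:111846750-111846950: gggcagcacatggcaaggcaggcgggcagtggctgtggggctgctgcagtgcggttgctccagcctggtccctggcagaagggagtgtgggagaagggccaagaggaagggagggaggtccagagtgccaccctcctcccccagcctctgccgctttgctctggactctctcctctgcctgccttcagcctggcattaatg
HNF4A intron, chr17:46833949-46834149: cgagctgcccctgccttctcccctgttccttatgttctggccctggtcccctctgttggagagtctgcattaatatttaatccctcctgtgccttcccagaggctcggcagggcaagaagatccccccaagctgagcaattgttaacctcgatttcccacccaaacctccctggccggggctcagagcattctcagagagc
WNT9B intron, chr12:17723533-17723733: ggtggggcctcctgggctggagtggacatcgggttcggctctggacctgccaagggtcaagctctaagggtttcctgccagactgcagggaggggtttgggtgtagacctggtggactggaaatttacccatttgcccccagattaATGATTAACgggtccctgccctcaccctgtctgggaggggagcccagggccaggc
CALB1 promoter, chr4:46700980-46701180: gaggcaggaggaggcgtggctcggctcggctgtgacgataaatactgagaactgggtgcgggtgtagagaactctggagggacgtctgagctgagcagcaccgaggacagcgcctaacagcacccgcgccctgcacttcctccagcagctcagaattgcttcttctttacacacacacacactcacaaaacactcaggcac
SLC4A4 promoter, chr8:67967897-67968097: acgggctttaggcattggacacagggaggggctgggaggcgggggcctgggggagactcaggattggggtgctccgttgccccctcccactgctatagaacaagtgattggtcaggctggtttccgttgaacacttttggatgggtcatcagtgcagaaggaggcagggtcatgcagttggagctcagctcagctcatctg
The lung-only windows lie at the NKX2-1 promoter, at 1 of the starts of FOXP2 (a forkhead factor of the lung epithelium), in an intron of TP63 (the factor of airway basal cells), at the promoter of SFTPB (surfactant protein B), and at the promoter of KCNRG, a gene outside the lists.
NKX2-1 promoter, chr7:63488152-63488352: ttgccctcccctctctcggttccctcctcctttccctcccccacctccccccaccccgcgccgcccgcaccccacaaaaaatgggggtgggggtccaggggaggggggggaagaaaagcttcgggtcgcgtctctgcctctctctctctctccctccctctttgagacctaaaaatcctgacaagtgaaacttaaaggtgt
FOXP2 promoter, chr18:31886759-31886959: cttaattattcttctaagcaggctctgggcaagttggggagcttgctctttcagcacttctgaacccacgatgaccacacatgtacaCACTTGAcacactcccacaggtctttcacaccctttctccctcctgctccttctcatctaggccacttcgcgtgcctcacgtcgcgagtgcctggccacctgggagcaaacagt
TP63 intron, chr13:127320628-127320828: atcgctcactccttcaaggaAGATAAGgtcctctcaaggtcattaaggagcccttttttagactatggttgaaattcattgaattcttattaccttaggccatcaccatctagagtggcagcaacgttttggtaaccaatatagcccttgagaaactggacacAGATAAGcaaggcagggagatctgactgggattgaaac
SFTPB promoter, chr3:59101467-59101667: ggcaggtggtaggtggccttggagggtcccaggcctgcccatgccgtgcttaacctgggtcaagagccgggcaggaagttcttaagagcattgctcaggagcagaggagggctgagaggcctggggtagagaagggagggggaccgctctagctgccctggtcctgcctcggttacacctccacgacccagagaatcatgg
KCNRG promoter, chr11:17796654-17796854: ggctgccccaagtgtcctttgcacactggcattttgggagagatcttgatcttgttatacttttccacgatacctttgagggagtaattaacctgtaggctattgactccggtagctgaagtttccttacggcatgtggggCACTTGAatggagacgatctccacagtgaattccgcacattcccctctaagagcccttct
The WNT9B window held 1 match to the HNF1 sequence, the FOXP2 and KCNRG windows 1 match each to the NKX2 sequence, and the TP63 window 2 matches to the GATA sequence. The other 6 windows held none of these 7 sequences, which says only that those exact letters were not in these windows. Among the strongest kidney-only and lung-only peaks of all genes named by rule, 13 of 66 kidney-only windows and 21 of 64 lung-only windows held at least 1 of them.

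To compare the extent of open chromatin, the sets were measured against their own lists. Kidney-only peaks made up 62.6% of the kidney list (Wilson 95% interval 62.4% to 62.9%) and covered 30.4 Mb, and lung-only peaks 38.2% of the lung list (37.9% to 38.5%) and covered 14.0 Mb. On single autosomes the kidney-only share ran from 56.8% to 67.1% and the lung-only share from 28.0% to 44.8%. Lists of equal length could not test this gap. Similar numbers of kidney and lung peaks were shared there (37138 and 37918), so equal lengths left nearly equal shares. When the 77408 peaks with the highest smaller −log10 p were taken from each list, 52.0% of kidney peaks and 51.0% of lung peaks were organ-only. The intervals cover counting error only.

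**Figure D1:**
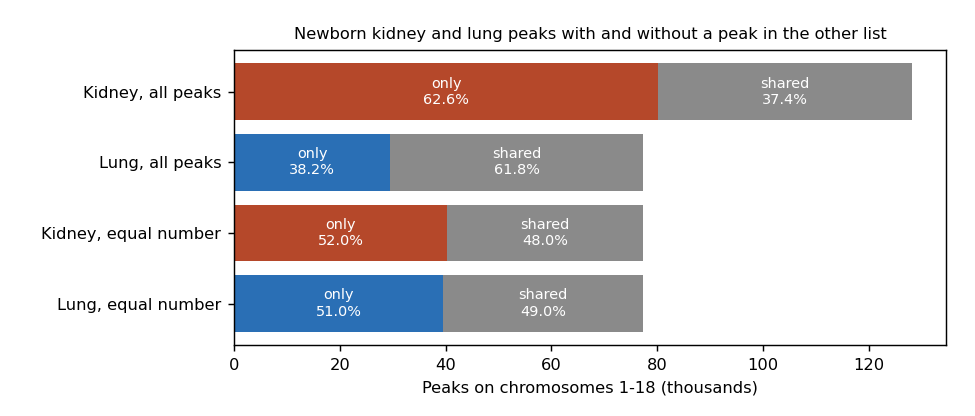
Number of newborn kidney and lung peaks (in units of 1000, x axis) without a peak in the other list (coloured) and with one (grey), for the deposited lists and for the 77408 top-ranked peaks of each. The organ-only share was 62.6% in kidney and 38.2% in lung with all peaks, and 52.0% and 51.0% at equal numbers.

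Shared peaks were stronger, wider and closer to genes. Their median width was 608 bp in kidney and 623 bp in lung, against 318 bp for kidney-only and 416 bp for lung-only peaks, and their summits lay a median of 12.8 kb and 12.7 kb from the nearest transcription start, against 39.5 kb and 34.0 kb. An IDR of 0.05 or lower was reached by 54.9% of shared and 21.4% of kidney-only peaks in kidney, and by 26.8% of shared and 10.5% of lung-only peaks in lung. The lung replicates stood further apart than the kidney replicates. The median −log10 p of lung-only peaks was 5.36 in replicate 1 and 15.6 in replicate 2, and that of kidney-only peaks was 6.84 and 7.73. Across peaks, which are not independent replicates, Spearman's rho between the replicates was 0.588 for kidney-only, 0.428 for lung-only, 0.733 for kidney shared and 0.566 for lung shared peaks. A −log10 p grows with depth, so values of both lists are given side by side below and no order between the lists is read from them, and pairs of values give replicate 1 before replicate 2. The median GC content around the summit was 52.2% in kidney-only, 48.3% in lung-only and 58.7% in shared peaks.

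Promoters, taken as the span reaching 2.2 kb ahead of any annotated start and 500 bp past it, held 4.78% of kidney-only peaks (4.63% to 4.93%), 5.47% of lung-only peaks (5.21% to 5.73%) and 29.8% of shared kidney peaks (29.4% to 30.2%). Introns held 45.7%, 47.3% and 30.9%, and intergenic DNA 42.3%, 39.2% and 31.0%. At equal numbers the promoter share was 4.89% of kidney-only and 8.98% of lung-only peaks. Of 18725 protein-coding genes (PCGs), 69.6% had a promoter called in both organs, 6.34% in kidney alone, 1.82% in lung alone and 22.2% in neither. At equal numbers these shares were 63.2%, 3.84%, 8.14% and 24.8%, so the order of kidney alone and lung alone turned with the length of the lists, and both sets of shares are the background for the gene lists that follow. With only peaks at an IDR of 0.05 or lower kept in both lists, 21.2% of all PCGs were called in kidney alone and 5.52% in lung alone, so fewer promoters were shared there. A promoter counts as both when it holds a shared peak or a peak of each list.

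Renal tubule transporters were the list with the largest number of promoters called in kidney alone. The deposited lists gave 14 of 37 genes in kidney alone (37.8%, against 6.34% of all PCGs), 1 in lung alone, 13 in both and 9 in neither. With equal numbers of peaks 13 were called in kidney alone and 2 in lung alone. The 14 genes ran along the nephron. Those of the proximal tubule were SLC34A1 (sodium phosphate cotransport), SLC5A12 (lactate), SLC22A12 (urate), SLC7A9 (cystine and basic amino acids), SLC13A3 (dicarboxylates), SLC9A3 (sodium-proton exchange) and CUBN (the protein receptor cubilin). SLC12A1, the target of loop diuretics in the thick ascending limb, and BSND, a chloride channel subunit, came next, followed by CALB1 and TRPV5 of distal calcium transport, AQP2, the water channel of the collecting duct, the anion exchanger SLC26A7 and the sodium pump subunit FXYD2. CALB1 had the strongest of these peaks, chr4:46700780-46701408, with 105 in replicate 1 and 114 in replicate 2, which was stronger than 99.6% of kidney peaks and was also called in liver. The SLC13A3 promoter reached 36.6 and 54.2, SLC9A3 20.9 and 39.3, SLC34A1 23.3 and 16.8, and SLC12A1 17.4 and 19.9. AQP2 was among the weakest, with 4.92 and 5.70, and its promoter was not among the top-ranked kidney peaks.

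Counted over promoter and gene body at equal numbers, 24 of the 37 transporters had more kidney-only than lung-only peaks and 5 had more lung-only peaks, whereas 24.9% of all PCGs had more kidney-only and 29.3% more lung-only peaks. The counts were 32 and 2 in the deposited lists, where 47.1% of all PCGs had more kidney-only and 12.3% more lung-only peaks, and 27 and 0 with an IDR limit of 0.05 in every list, where these shares were 44.5% and 6.42%. SLC13A3 had 9 kidney-only and no lung-only peaks in the deposited lists, and SLC9A3 had 13 and 0. SLC4A4 had 30 kidney-only and 8 lung-only peaks. Its kidney-only promoter peak, chr8:67967513-67968576 (46.0 and 62.1), lay at −42 bp from an annotated start and was called in no other newborn organ, while peaks at the other SLC4A4 starts were shared with lung. SLC5A1, a sodium glucose cotransporter, had its promoter called in both lists and 12 kidney-only against 2 lung-only peaks, the strongest of them in an intron with 46.6 and 67.5. The lung-alone promoter, ATP6V1G3, encodes a proton pump subunit and was weak, with 4.69 and 6.09. SLC5A2, SLC22A6, SLC22A8, SLC12A3 and UMOD were among the 9 genes without a promoter peak in either list.

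**Figure D2:**
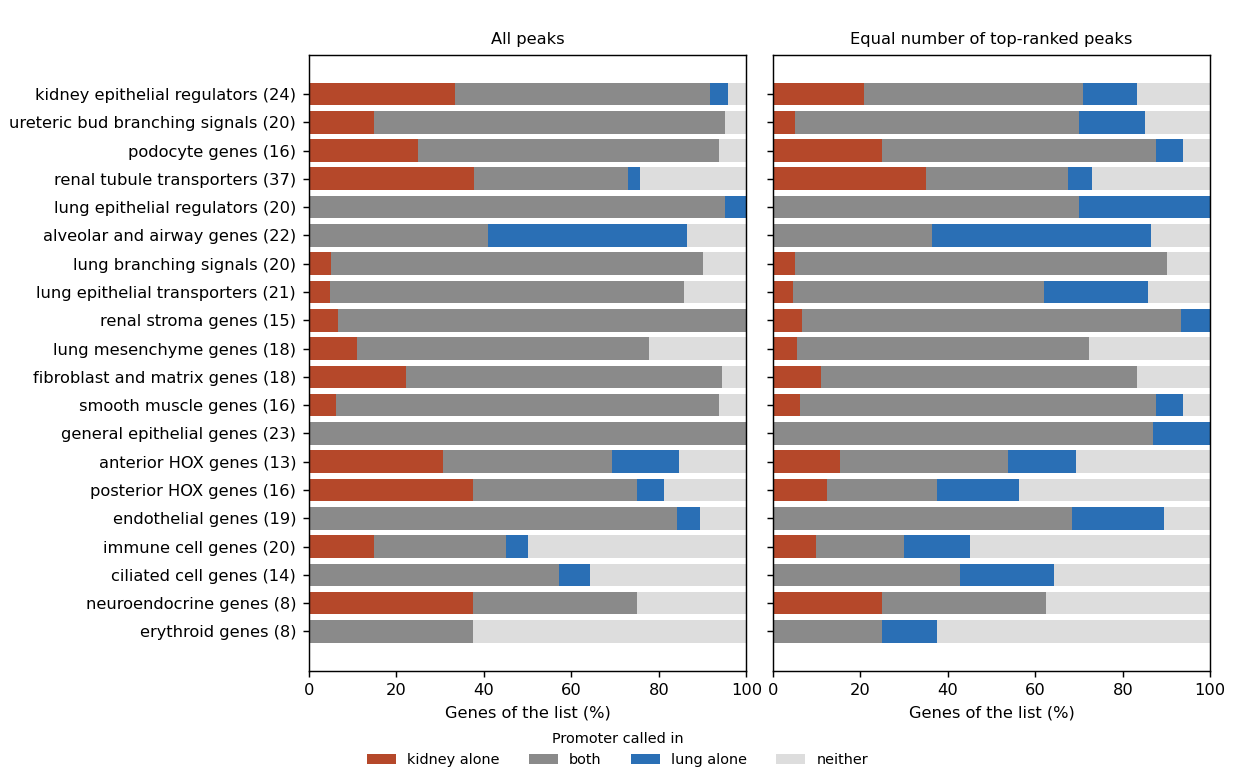
Share of each gene list (percent, x axis; number of genes found in brackets) with a promoter called in kidney alone, both, lung alone or neither, for the deposited lists (left) and at equal numbers of peaks (right). Kidney alone takes 37.8% of renal tubule transporters and 37.5% of posterior HOX and of neuroendocrine genes on the left, and lung alone takes 45.5% of alveolar and airway genes on the left and 50.0% on the right.

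Transcription factors of the renal epithelium were divided. Of 24 regulators, 8 had a promoter called in kidney alone, among them PAX2, LHX1, HNF4A, SALL1, HOXD11, HOXA11 and HOXD10, 14 in both, 1 in lung alone and 1 in neither. At equal numbers 5 of the 8 were called in kidney alone, and SIX2, IRX1 and IRX3 in lung alone. Kidney alone took 33.3% of the 24 in the deposited lists and 20.8% at equal numbers, against 6.34% and 3.84% of all PCGs. Lung alone took 12.5% at equal numbers, against 8.14%. With the IDR limit in every list kidney alone took 10 of the 24 (41.7%) and lung alone 1 (4.17%), against 21.2% and 5.52%. SALL1, a zinc finger factor of the nephron progenitor, had a promoter peak of 34.3 and 43.8 that was also called in heart and liver. The HNF4A promoter reached 15.4 and 29.2 and was also called in liver, and the strongest HNF4A peak lay in an intron with 27.8 and 43.8 and was called in no other newborn organ. LHX1 had 8.61 and 19.04 at its promoter and 4 kidney-only peaks in all. HOXD11 was weak, with 5.51 and 3.03, and was not among the top-ranked peaks. Factors of the nephron progenitor and the collecting duct, such as EYA1, WT1 and GATA3, had promoters called in both organs. GATA3 reached 57.3 and 57.6 in kidney and 40.4 and 144 in lung. IRX1 was the exception, with a promoter called in lung alone at 11.2 and 62.8. TFCP2L1, a factor of the collecting duct, had a shared promoter and 8 kidney-only peaks against 1 lung-only peak, the strongest at 32.9 and 65.7. SIM1 had a kidney-only peak of 25.3 and 38.2 at a start of its own and a shared peak at another.

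Podocytes are the cells that wrap the glomerular capillaries and filter the plasma. Of 16 podocyte genes 4 had promoters called in kidney alone, NPHS1 (nephrin), SYNPO (synaptopodin) and PTPRO among them, 11 were called in both and none in lung alone. The same number was called in kidney alone at equal numbers, and CLIC5 in lung alone. Kidney alone thus took 25.0% under both counts, against 6.34% and 3.84% of all PCGs. SYNPO reached 14.1 and 34.9, PTPRO 15.8 and 11.3, and NPHS1 9.05 and 7.14. The strongest kidney-only peaks of the list lay in introns of the type IV collagen gene COL4A3 (41.2 and 60.5) and of KIRREL (37.1 and 44.4). Counted over whole genes at equal numbers, 8 podocyte genes had more kidney-only and 8 more lung-only peaks, against 24.9% and 29.3% of all PCGs. The deposited lists gave 10 and 4, against 47.1% and 12.3%. With the IDR limit in every list the counts were 14 and 1, against 44.5% and 6.42%.

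Ureteric bud branching signals mostly had promoters called in both organs with the deposited lists, 80.0% against 69.6% of all PCGs. The receptor RET, the ligand WNT9B and FGF8 had promoters called in kidney alone, 3 of 20 genes (15.0%, against 6.34% of all PCGs). Of the others 16 were called in both and 1 in neither. RET reached 10.6 and 18.6 and remained in kidney alone at equal numbers, whereas the WNT9B promoter (5.45 and 7.12) and the FGF8 promoter (5.87 and 3.19) were not among the top-ranked peaks. The strongest kidney-only peak at WNT9B lay in its intron, with 42.1 and 96.7. GDNF, the ligand of RET, its co-receptor GFRA1 and WNT11 had promoters called in both lists. ETV5, which acts downstream of RET and of FGF signals, had a promoter peak whose replicates differed widely, with 4.63 and 118 in kidney and 98.3 and 3.84 in lung. Its low value in kidney replicate 1 placed it outside the top-ranked kidney peaks, while all lung peaks were kept, and at equal numbers ETV5, BMP7 and GREM1 were called in lung alone. With the IDR limit in every list 8 of the 20 genes were called in kidney alone and 1 in lung alone. GREM1 and BMP7, which act on BMP signalling during branching, had promoter peaks of 4.80 and 14.8 and of 4.97 and 6.38 in kidney.

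Alveolar and airway genes were the list with the largest share of promoters called in lung alone. This was 10 of 22 genes (45.5%, against 1.82% of all PCGs) with all peaks and 11 of 22 (50.0%, against 8.14%) at equal numbers, with none in kidney alone under either count. Making the lists equal removed kidney peaks only, so the count in lung alone could not fall and that in kidney alone could not rise. With the IDR limit in every list 4 were called in lung alone (18.2%, against 5.52% of all PCGs) and 4 in kidney alone (18.2%, against 21.2%). With that limit in the list itself the counts were 4 and 0, against 0.262% and 2.25% of all PCGs. The genes were those of the surfactant proteins SFTPA1, SFTPB, SFTPC and SFTPD, LAMP3 and NAPSA of lamellar bodies, AGER and CLDN18 of flat alveolar cells, and the secretoglobins SCGB3A1 and SCGB3A2 of the airways. LPCAT1, an enzyme of surfactant lipid synthesis, was added at equal numbers. SFTPB had 24.7 and 61.3 at its promoter, LAMP3 15.1 and 46.6, AGER 11.9 and 51.1, SFTPC 9.99 and 33.0, and CLDN18 8.78 and 144. SFTPA1 had 4.65 and 27.2 and NAPSA 3.80 and 20.1. In all 10 replicate 2 gave the higher value. Only SFTPB, LAMP3, AGER and SCGB3A2 had an IDR of 0.05 or lower.

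Peaks within the alveolar genes were counted next. In the deposited lists the 22 genes held 51 lung-only and 11 kidney-only peaks, and at equal numbers 17 genes had more lung-only peaks and 0 had more kidney-only peaks, against 29.3% and 24.9% of all PCGs. The counts were 13 and 3 in the deposited lists, against 12.3% and 47.1% of all PCGs. With an IDR limit of 0.05 in every list they were 7 and 6, against 6.42% and 44.5%. RTKN2, a marker of flat alveolar cells, had 19 lung-only and no kidney-only peaks, although its promoter was shared and reached 48.1 and 89.0 in kidney and 45.9 and 114 in lung. Its strongest lung-only peak was an intron peak of 32.7 and 67.4. LAMP3 had 7 lung-only peaks and NAPSA 5, with no kidney-only peak in either. The strongest SFTPD peak lay in an exon, with 22.6 and 90.5, above its promoter at 8.48 and 36.1.

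**Figure D3:**
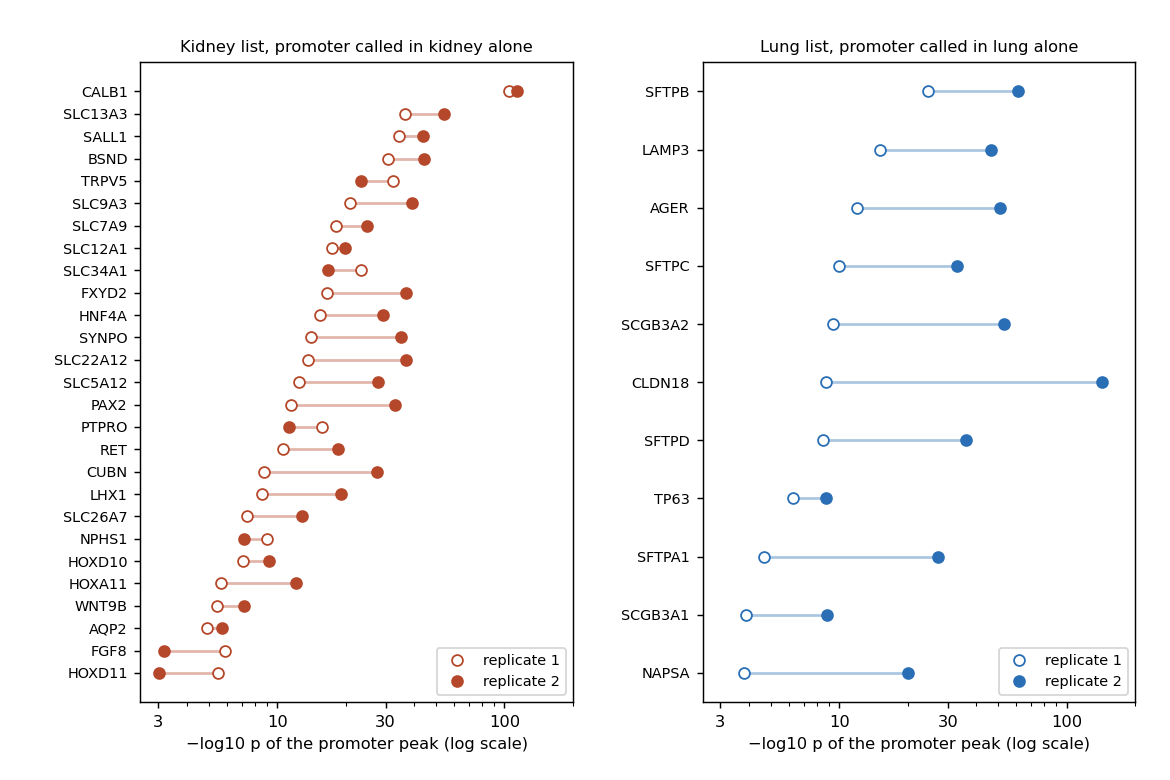
Deposited −log10 p (log scale, x axis) of the strongest promoter peak in replicate 1 (open circles) and replicate 2 (filled circles), for 27 genes of the 4 kidney lists called in kidney alone and the 11 genes of the lung lists called in lung alone. The kidney values run from 3.03 to 114, and in lung replicate 2 lies to the right for every gene.

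Regulators of the lung epithelium had promoters called in both organs for 19 of 20 genes, and TP63 was called in lung alone with 6.28 and 8.71. At equal numbers FOXP4, SOX9, FOXJ1, TP63, SPDEF and ETV5 were called in lung alone and none in kidney alone, and with the IDR limit in every list 3 were called in lung alone and 6 in kidney alone. Their gene bodies differed more than their promoters, since 16 of the 20 had more lung-only and none more kidney-only peaks at equal numbers. The shares of all PCGs were 29.3% and 24.9% there. The deposited lists gave 8 and 5 (40% and 25%, against 12.3% and 47.1% of all PCGs). An IDR limit of 0.05 in every list gave 5 and 9 (25% and 45%, against 6.42% and 44.5%). The order of the counts was not kept, while the lung-only share was above that of all PCGs in each of these settings. FOXP2 had 34 lung-only and 5 kidney-only peaks, and at equal numbers 35 and 2, in a locus of 558 kb. Its lung-only peak at 1 annotated start reached 18.9 and 75.0 and was called in no other newborn organ, while a start nearby had a kidney peak of 30.0 and 42.6 that was shared with lung. TP63 had 10 lung-only and 2 kidney-only peaks, the strongest in an intron with 31.9 and 87.1. HOPX, a homeodomain protein of flat alveolar cells, had a lung-only intron peak of 23.9 and 63.9. GATA6 had a shared promoter with 39.7 and 110 in lung and 8.60 and 29.4 in kidney, and FOXA1 had 14.2 and 66.1 in lung and 6.43 and 11.9 in kidney.

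Transporters of the lung epithelium were mostly called in both organs at their promoters in the deposited lists, 81.0% against 69.6% of all PCGs. The peptide transporter SLC15A2, which is also known from the proximal tubule, was called in kidney alone with 13.2 and 11.3, none was called in lung alone, and 17 of 21 were called in both. At equal numbers the promoters of SCNN1B, SLC39A8, ANO1, KCNQ1 and CLIC5 were called in lung alone (23.8%, against 8.14% of all PCGs). SCNN1A and SCNN1G, subunits of the epithelial sodium channel that clears lung fluid at birth and reclaims sodium in the collecting duct, had shared promoters, with 34.2 and 51.4 in kidney and 40.3 and 144 in lung for SCNN1A. Within genes, 15 of 21 had more lung-only and 2 more kidney-only peaks at equal numbers, against 29.3% and 24.9% of all PCGs. In the deposited lists 4 had more lung-only and 11 more kidney-only peaks (19.05% and 52.4%). All PCGs gave 12.3% and 47.1% there, so the larger kidney-only count was not particular to these transporters. CFTR, the chloride channel lost in cystic fibrosis, had 14 lung-only and no kidney-only peaks in the deposited lists and 15 and 0 at equal numbers. Only kidney peaks were cut there, so this order could not turn. The phosphate transporters of the SLC34 family differed. SLC34A1, the renal member, had its promoter called in kidney alone, and SLC34A2, the member of alveolar cells, had 9.11 and 16.02 in kidney and 8.23 and 53.3 in lung.

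Lung branching signals mostly had promoters called in both organs with the deposited lists, 85.0% against 69.6% of all PCGs. Of 20 genes, 17 were called in both, none in lung alone and FGFR2, the receptor of FGF10, in kidney alone, with a peak of 10.9 and 16.4 whose summit lay at −2677 bp from the nearest start. FGF10 and SHH had no promoter peak in either list. PTCH1, the receptor of SHH, had shared promoter peaks and a lung-only intron peak of 15.2 and 103, and the mesenchymal ligands WNT2 and WNT2B had lung-only intron peaks of 10.9 and 25.7 and of 11.5 and 41.8. With the IDR limit in every list, 13 of the 20 promoters were called in kidney alone and 1 in lung alone, against 21.2% and 5.52% of all PCGs. Over whole genes, 3 had more kidney-only and 12 more lung-only peaks at equal numbers, against 24.9% and 29.3% of all PCGs. The counts were 8 and 5 in the deposited lists, against 47.1% and 12.3%. With the IDR limit they were 15 and 1, against 44.5% and 6.42%, so the direction over this list was not kept.

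Stromal genes mostly had promoters called in both organs with the deposited lists, as did 69.6% of all PCGs. The share in both was 93.3% for renal stroma and 87.5% for smooth muscle and pericyte genes. It was 66.7% for lung mesenchyme and 72.2% for fibroblast and matrix genes, near that of all PCGs. Of 15 renal stroma genes 14 were called in both, including FOXD1, TBX18 and TCF21, and POSTN, which encodes the matrix protein periostin, was called in kidney alone with 5.97 and 18.99. FOXD1 had 13.1 and 4.04 in kidney and 16.3 and 22.4 in lung and was called in lung alone at equal numbers. Of 18 lung mesenchyme genes 12 were called in both, none in lung alone, and TBX4 and LGR6 in kidney alone. TBX4, a T-box factor of lung mesenchyme, had a weak kidney-only promoter peak of 3.77 and 4.97 that was not among the top-ranked peaks. TBX5 had separate promoter peaks in each list, with 9.80 and 15.8 in lung. Among 18 fibroblast and matrix genes, the collagens COL3A1 and COL6A3 and the proteoglycans LUM and DCN had promoters called in kidney alone, 13 were called in both and none in lung alone, and at equal numbers COL6A3 and DCN remained. Among 16 smooth muscle and pericyte genes 14 were called in both, and RGS5, a pericyte marker, had a kidney-alone promoter of 49.0 and 46.8 that was called in no other newborn organ and was stronger than 96.3% of kidney peaks. With the IDR limit in every list more of these promoters were called in kidney alone, 8 of 15 for renal stroma, 6 of 18 for lung mesenchyme, 10 of 18 for fibroblast and matrix and 7 of 16 for smooth muscle and pericyte genes, against 21.2% of all PCGs, and at most 1 of each list in lung alone.

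The direction of peaks inside stromal genes depended on how peaks were chosen. At equal numbers 12 of 18 fibroblast and matrix genes had more lung-only and 1 more kidney-only peaks. Likewise 13 of 18 lung mesenchyme genes had more lung-only and 1 more kidney-only peaks, beside 29.3% and 24.9% of all PCGs. In the deposited lists the counts were 5 and 6 for fibroblast and matrix genes and 4 and 10 for lung mesenchyme genes, beside 12.3% and 47.1% of all PCGs. Renal stroma genes gave 6 in each direction at equal numbers, but 10 with more kidney-only and 0 with more lung-only peaks in the deposited lists. With the IDR limit in every list they gave 11 and 0, beside 44.5% and 6.42% of all PCGs. No order of the organs was read from these lists.

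Genes of any epithelium served as a reference. All 23 of them, among them CDH1, EPCAM, KRT8, KRT18, GRHL2, ESRP1 and the claudins CLDN3, CLDN4 and CLDN7, had promoters called in both organs with the deposited lists, against 69.6% of all PCGs. At equal numbers 20 of the 23 were in both, and CDH1, GRHL1 and OVOL1 were called in lung alone (13.0%, against 8.14% of all PCGs). With the IDR limit in every list 8 were called in kidney alone and 4 in lung alone (34.8% and 17.4%, against 21.2% and 5.52%). The CDH1 promoter had 44.0 and 102.5 in lung and 4.31 and 61.3 in kidney, where replicate 1 placed it outside the top-ranked peaks. CDH1 (E-cadherin) also had a lung-only intron peak of 18.8 and 75.1.

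HOX genes mark position along the body axis, and the posterior genes are known from the kidney. Of 16 posterior HOX genes 6 had promoters called in kidney alone (HOXA10, HOXA11, HOXC11, HOXC13, HOXD10 and HOXD11), HOXB13 was called in lung alone, 6 in both and 3 in neither. At equal numbers only HOXA10 and HOXD10 were left in kidney alone and 3 were in lung alone. Kidney alone thus took 37.5% and then 12.5% of the posterior genes, against 6.34% and 3.84% of all PCGs. Lung alone took 6.25% and then 18.75%, against 1.82% and 8.14%. HOXA10 was the strongest, with 14.3 and 20.4, and was called in no other newborn organ. Of 13 anterior HOX genes HOXB1, HOXB2, HOXB5 and HOXC5 were called in kidney alone (30.8%, against 6.34% of all PCGs), and HOXA2 and HOXA5 in lung alone (15.4%, against 1.82%). HOXA5, which acts in lung mesenchyme, had 12.7 and 60.6 and was also called in liver and spleen, and HOXB2 had 25.5 and 31.4 in kidney and was also called in liver. Genes of a HOX cluster lie close together, and a peak can lie in the windows of 2 neighbours, as the peak at HOXD9 and HOXD10 did.

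Markers of other cells were counted because whole organs hold them. Of 19 endothelial genes none had a promoter called in kidney alone, EMCN was called in lung alone (4.46 and 6.67), 16 in both and 2 in neither. At equal numbers CDH5, FLI1, EMCN and PLVAP were in lung alone (21.1%, against 8.14% of all PCGs). There 13 genes had more lung-only and 1 more kidney-only peaks, against 29.3% and 24.9% of all PCGs. The deposited lists gave 4 and 9 (21.05% and 47.4%), against 12.3% and 47.1% of all PCGs, so the kidney-only share was near that of all genes. Under the IDR limit in every list 6 promoters were called in kidney alone and 1 in lung alone, against 21.2% and 5.52%. Of 20 immune genes CD79B, CD68 and CORO1A were called in kidney alone, SPI1 in lung alone, 6 in both and 10 in neither, and the T and B cell markers CD3E, CD2 and MS4A1 had no promoter peak in either list. Of 14 ciliated cell genes SPAG6 was called in lung alone and 8 in both. DNAH9, a dynein of motile cilia, had a shared promoter but 20 kidney-only and no lung-only peaks in its body. Of 8 neuroendocrine genes 3 were called in kidney alone (37.5%, against 6.34% of all PCGs), CHGA and SST among them. The SST promoter was strong, with 54.2 and 70.7, and was called in no other newborn organ. Of 8 erythroid genes none was called in 1 organ alone, 3 were in both and 5 in neither, HBB among them. The part of these cells in the kidney-only and lung-only sets was not tested.

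To see whether organ-only peaks belonged to the organ pair alone, they were compared with newborn heart, liver, muscle and spleen. No peak of those 4 lists overlapped 55.3% of kidney-only peaks (54.9% to 55.6%) and 57.1% of lung-only peaks (56.6% to 57.7%), against 9.19% of shared kidney peaks. Kidney-only peaks were called in liver for 31.0% and in spleen for 16.1%, heart for 14.0% and muscle for 9.17%. Lung-only peaks were called in liver for 24.9%, in spleen for 18.5%, heart for 17.0% and muscle for 10.3%. With the liver and spleen lists also cut to the length of the lung list, and the shorter heart and muscle lists kept whole, the liver share was 29.1% for kidney-only and 23.5% for lung-only peaks, while lung-only peaks were called more often in spleen (25.6% against 18.6%), heart (25.4% against 17.3%) and muscle (16.1% against 11.09%). The order of kidney-only and lung-only peaks was the same for each of the 4 organs with both choices of peaks.

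**Figure D4:**
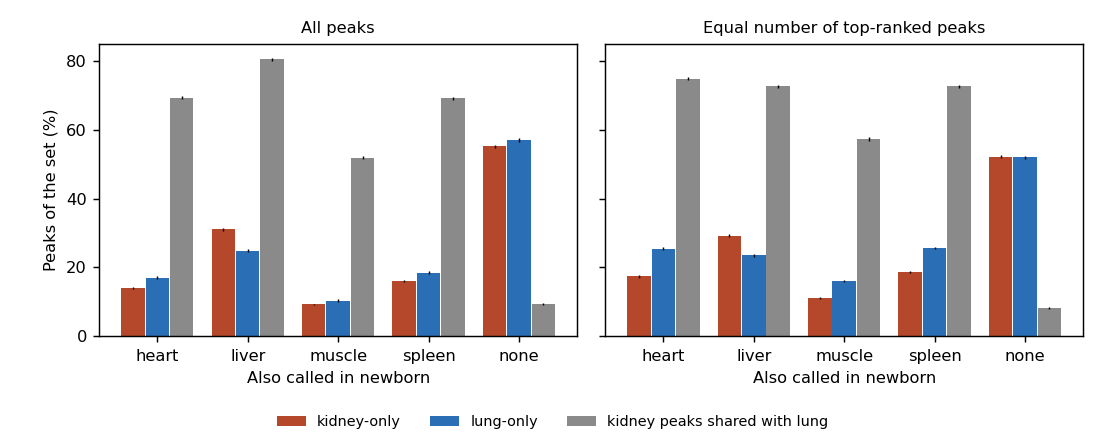
Share of kidney-only, lung-only and shared kidney peaks (percent, y axis) that overlapped a peak of newborn heart, liver, muscle or spleen by 1 bp or more, or of none of them, for the deposited lists and with every list longer than that of the lung cut to its length; error bars are Wilson 95% intervals. Kidney-only bars exceed lung-only bars for liver, 31.0% against 24.9%, and are the lower for the other organs.

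Short sequences known for transcription factor families were then counted within 100 bases of the summits of peaks outside promoters, 76432 kidney-only and 27951 lung-only windows, on both strands. HNF1 (GTTAATNAT) matched in 1.90% of kidney-only windows (1.81% to 2.00%) and 0.494% of lung-only windows (0.418% to 0.583%), and HNF4 (CAAAGTCCA) in 0.992% (0.924% to 1.06%) and 0.211% (0.164% to 0.272%). These were the largest ratios, 3.86 and 4.70, and the kidney-only share was the higher on all 18 autosomes for HNF1. PBX-HOX (TGATTNAT) matched in 3.05% and 2.14%, TFAP2 (GCCNNNGGC) in 11.6% and 8.87%, ESRR (CAAGGTCA) in 2.12% and 1.63%, and the E-box of TCF21 (CAGCTG) in 20.3% and 15.8%. Shared kidney windows held more of TFAP2 (14.9%) and TCF21 (21.1%) than kidney-only windows did. At equal numbers TFAP2 gave 10.9% and 9.91%, with the kidney-only share higher on 13 of 18 autosomes. CTCF (AGGGGGC), a factor of chromatin loops, matched in 6.12% and 3.996%, but in 10.6% of shared kidney windows. The letters of PAX2 and PAX8 (GTCACGC) gave 0.913% and 0.708%, with the kidney-only share higher on 12 of 18 autosomes, and 1.03% in shared kidney windows. The same letters read backwards gave 1.23% and 0.834%, a wider gap than the true letters, so no order was read from PAX2/8.

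NKX2 (CACTTGA) matched in 6.34% of lung-only windows (6.06% to 6.63%) and 2.40% of kidney-only windows (2.30% to 2.51%), FOXA (TGTTTAC) in 6.56% and 2.61%, and the letters AGATAAG of GATA factors in 5.01% and 1.88%, each the higher in lung on all 18 autosomes. CEBP (TTGCNNAA) matched in 14.4% and 7.79%, TEAD (CATTCCA) in 7.34% and 4.02%, SOX (ACAATGG) in 3.02% and 1.93%, AP1 (TGANTCA) in 9.92% and 7.18%, RFX (GTTGCCAT), a family of cilium genes, in 1.24% and 0.782%, GRHL (AACCNGTT) in 1.91% and 1.35%, NR3C (ACANNNTGT) in 7.27% and 5.65% and ETS (AGGAAGT) in 7.002% and 6.20%. Read backwards, the NR3C letters gave 6.1% of lung-only and 5.26% of kidney-only windows, and the ETS letters 4.83% and 4.36%. The reversed letters were the higher in lung on 16 of 18 autosomes for NR3C and on 15 for ETS. Much of the lung-only excess of NR3C and ETS was therefore not particular to the true letters. HOX9-13 (TTTATNG) gave 7.51% of kidney-only and 7.39% of lung-only windows, with intervals that overlapped. At equal numbers these were 8.13% and 7.03%, the higher in kidney on all 18 autosomes. The same letters backwards gave 7.63% and 12.2% with all peaks, the higher in lung on all 18, so no order was read from HOX9-13. Shared windows held HNF1 in 0.812% and NKX2 in 2.57% in kidney. Matches of the 7 families in capitals above shared bases with a match of any one other family in at most 3.05% of the windows that held them.

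Both orders held when the lists were made equal, with HNF1 in 2.59% of kidney-only and 0.479% of lung-only windows and NKX2 in 5.76% of lung-only and 2.52% of kidney-only windows. Reading the consensus backwards, which keeps its base composition, gave a kidney-only minus lung-only difference of 0.0386 percentage points for HNF1, against 1.41 for the true letters, and a lung-only minus kidney-only difference of −0.566 points for NKX2, against 3.93. For CEBP, TEAD, FOXA and GATA factors the lung-only excess was 6.57, 3.32, 3.95 and 3.13 points with the true letters and 0.234, 0.171, 0.777 and 0.189 points backwards, while for GRHL it was 0.554 and 0.867 points. Reversal does not keep the pairs of neighbouring bases. The reversed CEBP letters matched in only 1.95% of kidney-only and 2.18% of lung-only windows, which limits a difference in points. Their ratio of lung-only to kidney-only windows was 1.12, against 1.84 for the true letters. Kidney-only windows also called in liver held HNF4 in 1.55% (1.40% to 1.71%) and those not called in liver in 0.747% (0.678% to 0.824%), while HNF1 was in 2.14% and 1.798%. ETS is a broad family that includes blood and endothelial factors. Lung-only windows also called in spleen held it in 13.0% (12.1% to 14.0%) and the others in 5.71% (5.42% to 6.02%). NKX2 was in 4.82% and 6.66% of these windows, and FOXA in 4.76% and 6.95%. A match is a description of the letters and not evidence of binding.

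**Figure D5:**
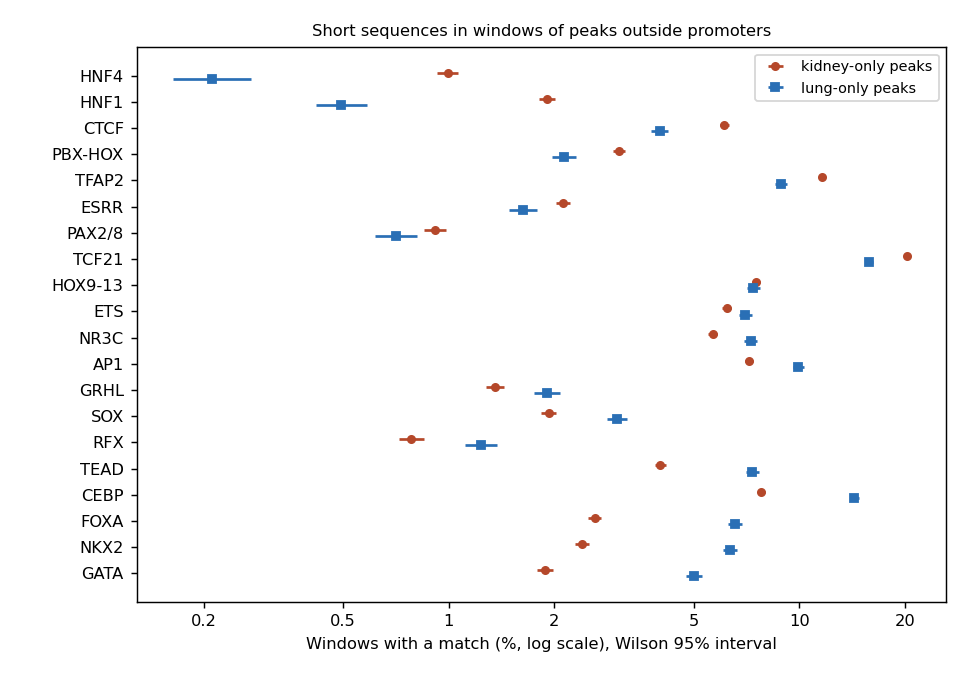
Share of windows around the summits of kidney-only (circles) and lung-only (squares) peaks outside promoters with a match to each of 20 short sequences (percent, log scale, x axis), with Wilson 95% intervals, ordered by the ratio of kidney to lung. HNF4 and HNF1 lie furthest apart at the top, with 0.992% against 0.211% and 1.90% against 0.494%, and FOXA, NKX2 and GATA at the bottom, with 5.01% of lung-only and 1.88% of kidney-only windows for GATA.

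Genes outside the lists were named by rule. Among promoters called in kidney alone, TMEM72, which encodes a membrane protein, had the strongest peak (97.9 and 120), followed by LRRTM3 (75.5 and 72.6), SYT4 (65.7 and 85.1), MCCD1 (60.2 and 103) and VSTM2A (51.5 and 74.3). VSTM2A was called in no other newborn organ, LRRTM3 in all 4. Among promoters called in lung alone, SLC15A5 led with 57.9 and 216 and was also called in heart and liver. C6H1orf87 (26.0 and 77.0), CHIA, an acidic chitinase (22.6 and 103), KCNRG (19.6 and 70.0) and C5H12orf56 (18.6 and 76.1) were called in no other newborn organ. The genes with the most organ-only peaks were long. At equal numbers AUTS2 had 44 kidney-only and 15 lung-only peaks in 1231 kb, and TENM4 33 and 12 in 789 kb, while WWOX, with 44 and 40, PDE4D, with 36 and 32, and TENM2, with 35 and 28, held many of both. MECOM had 41 lung-only and 16 kidney-only peaks in 585 kb, C8H4orf22 34 and 5 in 530.3 kb, and RBMS3 35 and 13.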

How the data were processed

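The 6 newborn peak lists of the series were used, each of which merges 2 ATAC-seq libraries of 1 organ. Per the study's methods, the authors aligned paired-end reads to Sscrofa11.1 with Bowtie2, filtered out duplicates, reads of low quality and those of the mitochondrion (SAMtools 1.3.1), called peaks per replicate with MACS2, and matched the replicates by IDR. The deposited −log10 p values are those of each replicate's MACS2 peak, made by the authors with no scaling between libraries, and the deposited score is the authors' scaled IDR, where 540 or more stands for an IDR of 0.05 or lower. The liver lists of the later ages were not used.

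Peaks on chromosomes 1 to 18 were intersected in Python 3.11.15 with pandas 2.3.3 and numpy 2.4.6, and a shared peak overlapped by 1 bp or more. Lists were made equal by the smaller −log10 p of the 2 replicates, cut at 77408 peaks, the length of the lung list, while the shorter heart and muscle lists were kept whole. Genes, promoters and DNA came from the RefSeq annotation and genome of the same build (pysam 0.24.0), with 18725 protein-coding genes and 44112 promoters. The features were assigned in the order promoter, exon, intron, downstream and intergenic. Shares carry Wilson 95% intervals (scipy 1.17.1) that cover counting error only. Of 368 distinct genes in 20 lists, 352 were found by symbol. The members, gene lists and sequences were chosen with earlier results of these data known. Named genes were PAX2, PAX8 and NKX2-1, the up to 4 members of each list with the strongest peak of its set, members that a count singles out, and outside the lists the 5 genes with the strongest promoter peak and the 5 with the most peaks of each set. The other genes named and the 10 sequences shown were picked after their values were seen. A few listed genes and 1 motif family are counted but not reported here by name. No sample-level test was possible, and the scripts were tested on simulated data. The alternatives were equal numbers, IDR limits, other overlaps, a narrower promoter, a shorter window, reversed motifs and 1 replicate at a time.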

Additional observations from a re-analysis of the deposited data

How the results depend on the processing

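No paired analysis was possible because each list merges both replicates and no result comes from a test. Of 94 values recomputed under the alternatives, 34 moved by less than their interval, or by less than 1.5 times for a count, 59 moved further and 1 changed sign. In the order kidney-only peaks, lung-only peaks, promoter shares of kidney-only and lung-only peaks, genes with a promoter called in kidney alone and in lung alone, HNF1 excess in kidney-only and NKX2 excess in lung-only windows (percentage points), and shares of kidney-only peaks called in liver and of lung-only peaks called in spleen, the deposited lists gave 80266, 29567, 4.78%, 5.47%, 1188, 340, 1.41, 3.93, 31.0% and 18.5%. Equal numbers gave 40270, 39490, 4.89%, 8.98%, 719, 1524, 2.11, 3.23, 29.1% and 25.6%. Limiting all lists to an IDR of 0.05 gave 33435, 5977, 14.6%, 20.3%, 3962, 1034, 1.85, 7.38, 16.8% and 19.6%. The same limit in the list itself gave 17164, 3119, 5.21%, 4.55%, 421, 49, 2.81, 9.86, 48.5% and 13.7%, so the order of the promoter shares turned there. Alveolar and airway genes called in lung alone numbered 10 in the deposited lists and 4 under either IDR limit. The latter was 18.2% of these genes, against 5.52% of all PCGs with the limit in all lists and 0.262% with it in the list itself. Asking for 0.5 of the peak to be covered gave promoter shares of 5.29% and 6.19%, 33.3% in liver and 22.5% in spleen. Asking for no peak within 500 bp gave 3.85%, 4.07%, 30.6% and 17.5%. A promoter of 1 kb and 100 bp gave 2.91% and 3.23%. The shorter window gave HNF1 and NKX2 excesses of 0.820 and 2.65 points, and reversed letters 0.0386 and −0.566 points.

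Ranking by 1 replicate at equal numbers, that is without replicate 1 or without replicate 2, gave 39492 to 40229 kidney-only and 38609 to 39354 lung-only peaks, promoter shares of 4.89% to 5.04% and 7.89% to 8.54%, 719 to 741 and 1200 to 1332 genes, 13 to 13 tubule transporters, 10 to 11 alveolar and airway genes, excesses of 2.00 to 2.26 and 3.23 to 3.29 points, and shares of 25.8% to 31.1% and 24.4% to 25.1%. Each cut was as long as the lung list, so these rankings dropped no lung peak and did not test the lung replicates. The count of alveolar and airway genes called in lung alone could therefore not fall below 10. In settings chosen after seeing the data, 12 fibroblast and matrix genes and 12 endothelial genes had more kidney-only peaks with the IDR limit in all lists. None had more lung-only peaks there, the opposite of equal numbers. The shares of all PCGs turned as well, from 24.9% kidney-only and 29.3% lung-only at equal numbers to 44.5% and 6.42% under that limit. The lists carry no read counts, the study's read totals were not used here, and weak peaks of either organ may be missing from its list. Replicate 1 had the lower value in 89.7% of lung peaks, but every lung peak was kept in each ranked setting.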
